A study of Mus musculus with 12 samples.

Results

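A set of 10 nuclear-encoded subunit genes of complex IV, chosen by their symbols, was followed in heart RNA: the muscle isoforms Cox6a2, Cox7a1 and Cox8b, the ubiquitous isoforms Cox6a1, Cox7a2 and Cox8a, and Cox5a, Cox5b, Cox6b1 and Cox6c, for which 1 gene each was followed. Each of the 10 genes matched 1 locus of the 44450 listed, and none shared its locus with another gene name. All 10 were among the 12181 loci that reached 1 FPKM (fragment number scaled to transcript length and to the mapped fragments of the library) in at least 3 of the 6 libraries and were tested. The 3 knockout libraries came from hearts of 11-week-old C57BL/6N mice of genotype Mrpp3 loxP/loxP, +/Ckmm, in which Cre recombinase is driven by the muscle creatine kinase promoter. The 3 control libraries came from hearts of Mrpp3 loxP/loxP mice of the same age and strain, which carry the loxP-flanked gene but no Cre. Loss of the gene is thus directed to muscle cells, other cells of the heart keep it, and an effect of Cre itself cannot be told apart from that of the deletion. Mrpp3, now called Prorp, encodes the catalytic protein of mitochondrial RNase P, an enzyme that frees the 5′ ends of tRNAs from mitochondrial transcripts.

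Complex IV, or cytochrome c oxidase, passes electrons from cytochrome c to oxygen at the end of the respiratory chain. Its catalytic core is encoded by mitochondrial DNA and is surrounded by small subunits encoded in the nucleus. Several of these, among them COX6A, COX7A and COX8, exist as a form made in heart and skeletal muscle and a form made in most tissues, and the heart takes up the muscle form as it matures after birth. In humans the muscle form of COX8 is a pseudogene, whereas in mice Cox8b is an active gene.

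The targeted gene, listed in the files as 1110008L16Rik, stood at 0.441, 0.701 and 0.555 FPKM in the knockout libraries and at 3.49, 2.64 and 3.23 FPKM in the control libraries. Heart muscle transcripts were abundant in every library, but the summed level of 7 ventricular markers was 7386 to 16405 FPKM in knockouts and 32009 to 37114 FPKM in controls. In bulk tissue, fewer cells of a type and less RNA per cell cannot be told apart. Knockout replicate 2 stood apart, with summed atrial markers of 14334 FPKM. The other knockouts had 2072 and 2337 FPKM and controls 42.9 to 122 FPKM, so all 3 knockouts lay above the controls. In knockout replicates 1 and 3 most of that sum was Nppa, at 1948 and 2327 FPKM. Myl7 had 43.5, 911 and 0.0961 FPKM in the knockout libraries and 1.90, 0 and 0.313 FPKM in the control libraries. Myl4 had 66.1, 2290 and 3.35 FPKM in the knockout libraries and 4.09, 1.94 and 1.33 FPKM in the control libraries. Summed red cell markers of knockout replicate 2 reached 21895 FPKM. The other knockouts had 622 and 2010 FPKM and controls 1572 to 2902 FPKM. The ventricular sum of knockout replicate 2, 7386 FPKM, was the lowest. Total read numbers are not stated in the files. The steps between low values placed knockout libraries at 2.06 to 2.57 times, and the other control libraries at 1.32 and 1.35 times, the depth of control replicate 1.

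Of the 10 genes, 4 fell and 2 rose in the knockout, and 4 did not pass the test (limma on log2(FPKM + 0.5), Benjamini-Hochberg adjusted p under 0.05 over all loci). Across all loci 19.5% were called lower and 16.1% higher. The 4 that fell were the muscle isoforms Cox7a1, Cox8b and Cox6a2, and Cox6c. Those that rose were the ubiquitous isoforms Cox6a1 and Cox8a, while the ubiquitous Cox7a2 did not pass. Median log2 fold changes, knockout over control, were -1.60 for the 3 muscle isoforms, 0.98 for the 3 ubiquitous isoforms and -0.55 for the other 4 genes, beside -0.02 for all loci tested. Called loci numbered 4343, or 35.7%, with 1966 higher and 2377 lower. With libraries scaled to one common sum there were 3229 higher and 1400 lower, around a median of 0.20. Under that scaling 2 members still rose and 3 fell. Where groups are said below not to overlap, the share of all loci without overlap is not given here.

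**Figure D1:**
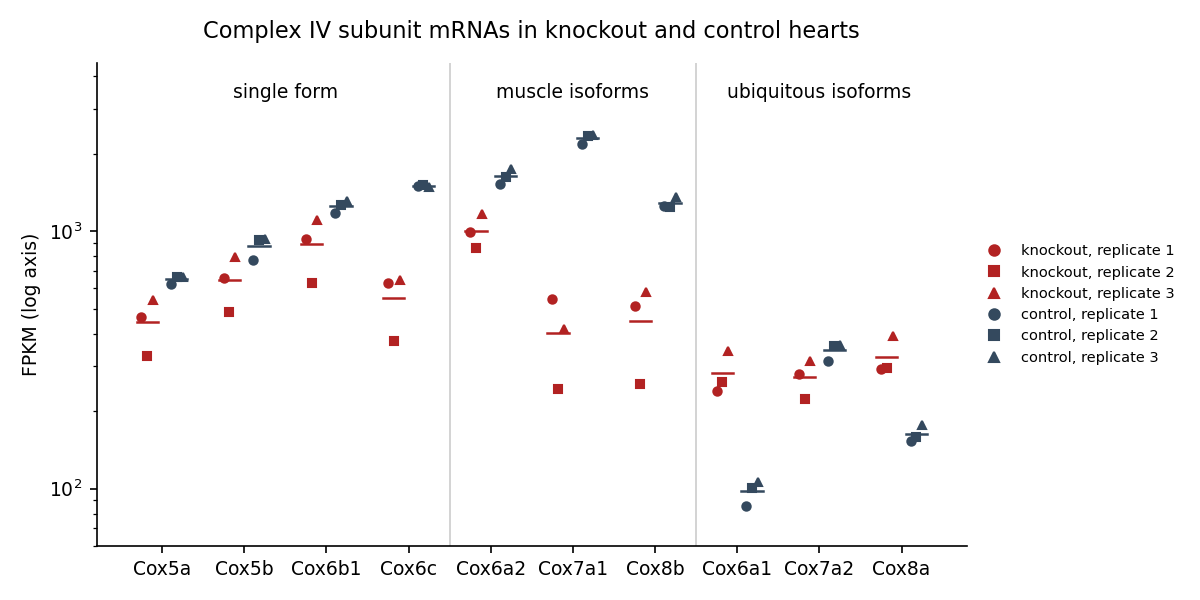
FPKM on a log axis for the 10 complex IV genes, with 1 point per library, knockout in red and control in dark blue, and a line at each group's mean. The muscle isoforms are lower in every knockout library than in any control, Cox6a1 and Cox8a are higher in every knockout library, and the groups overlap for Cox5b and Cox7a2.

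COX7A is a single-span subunit that lies at the face of complex IV where it meets complex III in supercomplexes. Cox7a1, its muscle form, lies at chr7:30184171-30186030 (RefSeq on GRCm38.p6). Its level was 546, 243 and 415 FPKM in the knockout libraries and 2185, 2357 and 2364 FPKM in the control libraries. Every knockout library was below every control by a wide margin, at a mean of 17.4% of the control mean. The log2 fold change was -2.59 (SE 0.31, limma adjusted p = 0.0012), and 0.394% of all tested loci fell more. In rank of mean level among all listed loci, Cox7a1 stood at 123 in knockouts and 30 in controls.

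Cox7a2, the ubiquitous form, had 279.7, 224 and 314 FPKM in the knockout libraries and 314, 359 and 361 FPKM in the control libraries. The groups overlapped narrowly, knockout replicate 3 lying level with control replicate 1. The log2 fold change of -0.35 (95% interval -0.77 to 0.07, limma adjusted p = 0.17) did not pass. Without knockout replicate 2 it was -0.21 (limma adjusted p = 0.23). The interval over all libraries leaves out a rise of the size seen for Cox6a1 or Cox8a.

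COX8 is a small subunit that spans the inner membrane once. Its muscle form Cox8b (chr7:140898942-140900446) had 510.4, 255 and 579 FPKM in the knockout libraries and 1253, 1239 and 1362 FPKM in the control libraries. All knockout libraries were below all controls, with knockout replicate 2 lowest, and the log2 fold change was -1.60 (SE 0.32, limma adjusted p = 0.0081). Its ubiquitous partner Cox8a (chr19:7215158-7217616) had 291, 293 and 392 FPKM in the knockout libraries and 153, 158 and 177 FPKM in the control libraries. Here every knockout library was above every control, and the log2 fold change was 0.98 (SE 0.17, limma adjusted p = 0.0050).

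COX6A sits at the interface between monomers in the complex IV dimer. Cox6a1, the ubiquitous form (chr5:115345652-115348958), had 239, 260.3 and 343 FPKM in the knockout libraries and 85.3, 101 and 106 FPKM in the control libraries. The groups were far apart, and a rise of 1.51 on the log2 scale (SE 0.18, limma adjusted p = 0.0013) was exceeded by 3.02% of all tested loci. The lowest of the 10 genes in controls, it moved to rank 174 among all listed loci in knockouts, against rank 526 in controls. Cox6a2, the muscle form (chr7:128205435-128206366), had 994, 860 and 1167 FPKM in the knockout libraries and 1522, 1625 and 1754 FPKM in the control libraries. Its groups did not overlap either, and its log2 fold change was -0.71 (SE 0.22, 95% interval -1.21 to -0.20, limma adjusted p = 0.039). This call was lost without knockout replicate 1 (adjusted p = 0.11) or control replicate 1, 2 or 3 (0.073, 0.14 and 0.13), with libraries scaled to the same sum (log2 fold change -0.48, adjusted p = 0.067), after quantile normalization (-0.39, adjusted p = 0.058) and with no filter on low values (adjusted p = 0.18).

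Among the 4 remaining genes, Cox6c, a small membrane-spanning subunit, fell. It had 631, 374 and 648 FPKM in the knockout libraries and 1505, 1514 and 1492 FPKM in the control libraries. Controls were tightly grouped and all knockouts lay far beneath them (-1.49 on the log2 scale, SE 0.26, limma adjusted p = 0.0047), a fall close to that of Cox8b. RefSeq lists pseudogenes named after Cox6c (Cox6c2) and Cox5b (Cox5b-ps), and whether the authors' counting split fragments with them is not given in the sources used here.

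Cox5a, which joins the mitochondrially encoded core early in assembly, had 464, 327 and 542 FPKM in the knockout libraries and 626, 664 and 667 FPKM in the control libraries. Cox5b, a zinc-binding subunit on the matrix side, had 657, 484 and 798 FPKM in the knockout libraries and 775, 922 and 935 FPKM in the control libraries. Cox6b1, which faces the intermembrane space, had 935, 629 and 1110.5 FPKM in the knockout libraries and 1179, 1262 and 1307 FPKM in the control libraries. Knockout replicate 2 was lowest for each, and the groups did not overlap for Cox5a and Cox6b1 but did for Cox5b. None of these passed, with log2 fold changes of -0.58 for Cox5a (95% interval -1.10 to -0.07, limma adjusted p = 0.077), -0.47 for Cox5b (-1.02 to 0.09, adjusted p = 0.16) and -0.52 for Cox6b1 (-1.12 to 0.07, adjusted p = 0.15). The estimate for Cox5b was 0.027 after quantile normalization. Without knockout replicate 2 the estimates shrank to -0.38 for Cox5a (limma adjusted p = 0.057), -0.27 for Cox5b (0.22) and -0.29 for Cox6b1 (0.16). Without knockout replicate 3 Cox5a passed (-0.74 on the log2 scale, limma adjusted p = 0.037).

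In the control hearts the 10 mRNAs were strongly graded, whereas in the knockout hearts their levels lay close together. FPKM are scaled to transcript length, so levels of different genes can be set side by side, but only roughly. How short transcripts and fragments shared with pseudogenes were handled is not given in the sources used here. From the highest to the lowest mean, the span was 3.69-fold in knockouts (Cox6a2 at 1007 FPKM to Cox7a2 at 273 FPKM) and 23.6-fold in controls (Cox7a1 at 2302 FPKM to Cox6a1 at 97.5 FPKM). Within single libraries it was 3.71- to 4.15-fold in knockouts and 22.2- to 25.6-fold in controls. The knockout order was Cox6a2, Cox6b1, Cox5b, Cox6c, Cox8b, Cox5a, Cox7a1, Cox8a, Cox6a1 and Cox7a2, and each neighbouring pair overlapped in range. Within single libraries the order from Cox6a2 down to Cox8b, and that of Cox8a over Cox6a1, held in all 3 knockouts. The other neighbours held their order in 2 of the 3. The control order was Cox7a1, Cox6a2, Cox6c, Cox8b, Cox6b1, Cox5b, Cox5a, Cox7a2, Cox8a and Cox6a1, and the sole neighbours whose ranges overlapped were Cox8b and Cox6b1.

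Of the summed FPKM of all 10 genes, 5268 ± 1205 in knockouts and 10108 ± 471 in controls (SD, n = 3 each), the muscle isoforms made up 35.2 ± 1.53% in knockouts and 51.6 ± 0.447% in controls. The ubiquitous isoforms made up 17.0 ± 2.56% in knockouts and 5.98 ± 0.198% in controls, and the other 4 genes 47.8 ± 1.68% in knockouts and 42.4 ± 0.498% in controls. These shares are sums over chosen genes and are given as a description.

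The balance between the muscle and the ubiquitous form moved the same way for each of the 3 subunits. As a share of the summed FPKM of its pair, Cox6a2 made up 80.6, 76.8 and 77.3% in the knockout libraries and 94.7, 94.2 and 94.3% in the control libraries. For Cox7a1 the share was 66.1, 52.0 and 56.9% in the knockout libraries and 87.5, 86.8 and 86.8% in the control libraries. Cox8b held 63.7, 46.5 and 59.6% in the knockout libraries and 89.1, 88.7 and 88.5% in the control libraries. No knockout library reached the lowest control in any pair, and the muscle form remained the larger part of its pair in every library except for Cox8b in knockout replicate 2. The mean shares differed by -16.2, -28.6 and -32.1 percentage points for COX6A, COX7A and COX8. Exact two-sided permutation gave p = 0.10 for each, the smallest value that 3 against 3 allows, also after adjustment over the 3 pairs.

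**Figure D2:**
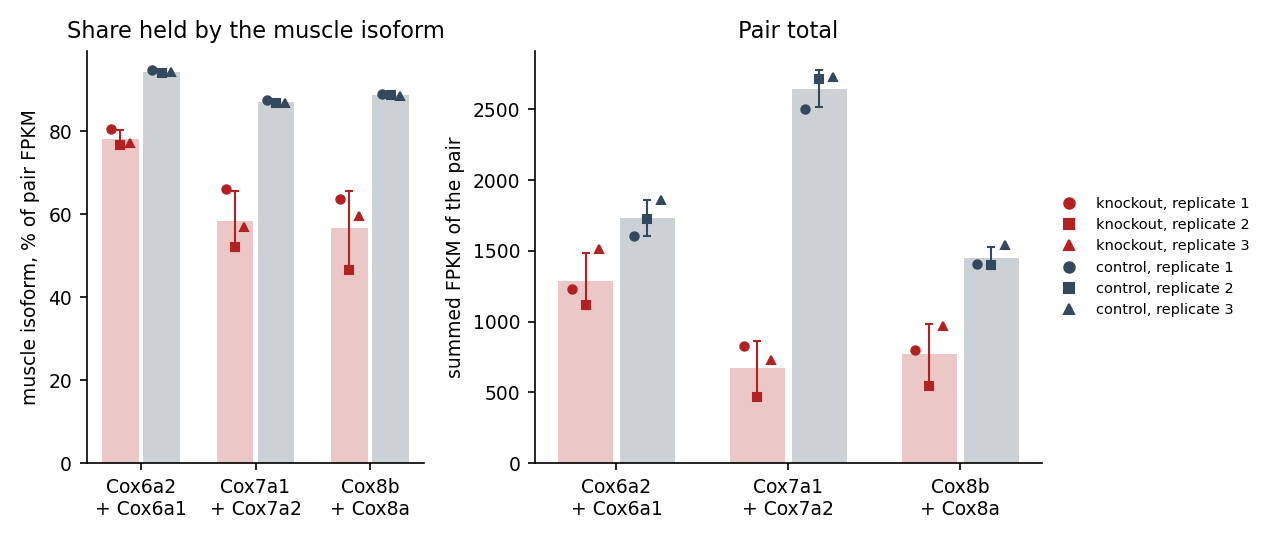
Left, the muscle isoform as a percentage of the summed FPKM of its pair; right, the summed FPKM of the pair, for knockout (red) and control (dark blue), with 1 point per library, bars at the mean and error bars of 1 SD (n = 3). The share was lower in each knockout library than in any control for all 3 pairs, and the total of Cox7a1 and Cox7a2 was the most reduced, at 25.5% of the control mean.

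The test of the difference between partners set every locus against the ubiquitous form within each library. Cox6a2 over Cox6a1 had a mean linear ratio of 3.62 ± 0.464 in knockouts and 16.8 ± 0.907 in controls (SD, n = 3 each), a log2 change of -2.22 (95% interval -2.76 to -1.68, limma adjusted p = 1.5e-06). Cox7a1 over Cox7a2 had a ratio of 1.45 ± 0.449 in knockouts and 6.69 ± 0.239 in controls, a log2 change of -2.25 (-2.74 to -1.75, limma adjusted p = 0.00019). The ratio of Cox8b over Cox8a was 1.37 ± 0.454 in knockouts and 7.90 ± 0.251 in controls, a log2 change of -2.59 (-3.17 to -2.00, limma adjusted p = 4e-05). The 3 intervals overlap, and the changes were not tested against each other.

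In these fits the error of the reference gene enters every locus, so their p-values are too small. With each ratio taken instead as 1 added row of the ordinary fit, a setting chosen after seeing the data, the adjusted p was 0.00018, 0.00071 and 0.00075. The background also differs between the pairs, because the reference itself moved. Relative to Cox6a1, 92.2% of all loci were called lower, relative to Cox8a 78.8%, and relative to Cox7a2 7.55%. Without knockout replicate 2 the log2 changes were -2.16, -2.06 and -2.29 for COX6A, COX7A and COX8.

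The parts of each change are given by the partners' own log2 fold changes, with no test between pairs. For COX7A the log2 change of the ratio came from the muscle form, -2.59, while Cox7a2 stood at -0.35 and so offset part of it. For COX8 both partners contributed, with -1.60 from Cox8b and 0.98 from Cox8a, the muscle form giving 61.9% of the change. For COX6A the larger part came from Cox6a1, at 1.51, and 31.9% from Cox6a2.

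The totals of the pairs accordingly differed in extent. Cox6a2 and Cox6a1 together had 1233, 1119.8 and 1509.7 FPKM in the knockout libraries and 1608, 1726 and 1861 FPKM in the control libraries, a knockout mean at 74.4% of control. Cox8b and Cox8a together had 801, 548 and 971 FPKM in the knockout libraries and 1406, 1398 and 1539 FPKM in the control libraries, or 53.4% of control. For Cox7a1 and Cox7a2 the total was 826, 467 and 729.8 FPKM in the knockout libraries and 2499, 2716 and 2725 FPKM in the control libraries, or 25.5% of control. No pair total overlapped between groups (exact two-sided permutation p = 0.10 each, the smallest possible). How often totals or shares of other pairs of loci separate in this way is not given here. By the same measure Cox5a stood at 68.1%, Cox5b at 73.7%, Cox6b1 at 71.3% and Cox6c at 36.6% of the control mean. The COX6A total was thus lowered about as far as Cox5a, Cox5b and Cox6b1, and the COX7A total further than any single gene of the 10 except Cox7a1. With libraries scaled to one sum the log2 difference of the COX6A total was -0.21, against -0.44 as deposited.

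Knockout replicate 2 was below the mean of the other 2 knockouts for all 10 genes. The log2 differences were -0.97 for Cox7a1, -1.09 for Cox8b and -0.32 for Cox6a2, -0.14, -0.41 and -0.20 for Cox6a1, Cox7a2 and Cox8a, and -0.58 to -0.77 for the other 4. The muscle forms of COX7A and COX8 were lowest in the library that was also lowest in ventricular and highest in atrial and red cell markers. So were Cox6a2, Cox7a2, Cox5a, Cox5b, Cox6b1 and Cox6c, whereas Cox6a1 and Cox8a were lowest among knockouts in replicate 1. Ventricular sums were also lower in the other knockouts, at 14924 and 16405 FPKM, against 32009 to 37114 FPKM in controls. The part of cell makeup in these results was not tested. Without knockout replicate 2, 4 members were called lower and 2 higher.

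Markers of other cells moved too, and their part in the rise of Cox6a1 and Cox8a was not tested. Of 7 macrophage markers all rose, with summed levels of 108 to 123 FPKM in knockouts and 66.0 to 69.6 FPKM in controls. Of 7 fibroblast markers 5 rose, with sums of 367 to 632 FPKM in knockouts and 318 to 391 FPKM in controls. Dcn and Pdgfra did not pass, and their means were lower in knockouts. Dcn had 190 FPKM in knockouts and 237 FPKM in controls, and Pdgfra 9.09 and 11.1 FPKM. None of 6 endothelial markers was called by limma, and their sums were 161 to 201 FPKM in knockouts and 185 to 199.6 FPKM in controls. Of 5 smooth muscle and pericyte markers 1 fell, with sums of 112 to 174 FPKM in knockouts and 204 to 215 FPKM in controls. Of 7 ventricular markers 5 fell, of the 4 atrial markers tested out of 6 there were 2 that rose, and none of 5 red cell markers was called. Across all loci tested, 16.1% were called higher and 19.5% lower. Cox7a1 and Cox8b are also genes of brown fat, whose defining marker Ucp1 was at 0 in 2 knockout and all 3 control libraries and at 0.0276 FPKM in knockout replicate 3. The summed brown fat list stood at 14.7 to 32.7 FPKM in knockouts and 13.5 to 15.6 FPKM in controls, most of it Cidea.

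Promoter windows (RefSeq, GRCm38.p6, 250 bases before to 50 after the start that its table gives for each gene) were given for 8 of the 10 genes, all but Cox6a2 and Cox6c. For Cox7a2 and Cox5a that start lies inside the listed span of the gene, chr9:79755241-79771422 and chr9:57517328-57532427, and not at its end. The windows are shown for the isoform pairs because the partners moved in opposite directions or unequally. The muscle forms come first, each 5′ to 3′ on the strand of the gene. Capitals mark matches to the E-box (CANNTG), the ETS core bound by factors such as GABPA (CGGAAG, read as CTTCCG on the other strand) and the NRF1 core (TGCGCA), searched on both strands.
Cox7a1, chr7:30183921-30184220, plus strand: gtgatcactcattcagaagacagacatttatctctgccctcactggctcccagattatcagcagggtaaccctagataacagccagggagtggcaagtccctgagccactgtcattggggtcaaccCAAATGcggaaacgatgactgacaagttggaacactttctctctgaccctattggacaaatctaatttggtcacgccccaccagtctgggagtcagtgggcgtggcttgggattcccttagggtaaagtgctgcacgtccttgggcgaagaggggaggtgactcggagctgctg
Cox8b, chr7:140900397-140900696, minus strand: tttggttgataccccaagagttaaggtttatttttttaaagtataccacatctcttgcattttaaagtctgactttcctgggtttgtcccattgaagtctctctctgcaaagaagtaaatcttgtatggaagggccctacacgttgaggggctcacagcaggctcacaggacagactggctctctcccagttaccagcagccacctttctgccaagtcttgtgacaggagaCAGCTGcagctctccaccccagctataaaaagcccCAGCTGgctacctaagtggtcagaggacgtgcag
Cox7a2, chr9:79759804-79760103, minus strand: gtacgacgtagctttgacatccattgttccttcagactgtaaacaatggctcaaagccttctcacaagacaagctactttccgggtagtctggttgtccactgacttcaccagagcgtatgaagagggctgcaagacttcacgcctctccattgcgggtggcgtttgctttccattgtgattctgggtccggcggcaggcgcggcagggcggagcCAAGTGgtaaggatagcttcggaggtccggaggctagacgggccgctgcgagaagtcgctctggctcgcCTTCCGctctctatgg
Cox8a, chr19:7217567-7217866, minus strand: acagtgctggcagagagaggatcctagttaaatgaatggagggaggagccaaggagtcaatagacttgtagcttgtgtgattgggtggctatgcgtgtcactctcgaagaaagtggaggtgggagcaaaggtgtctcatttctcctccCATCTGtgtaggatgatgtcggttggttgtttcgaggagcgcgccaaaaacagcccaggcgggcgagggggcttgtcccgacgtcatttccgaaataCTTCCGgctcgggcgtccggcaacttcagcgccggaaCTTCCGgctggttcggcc
Cox6a1, chr5:115348909-115349208, minus strand: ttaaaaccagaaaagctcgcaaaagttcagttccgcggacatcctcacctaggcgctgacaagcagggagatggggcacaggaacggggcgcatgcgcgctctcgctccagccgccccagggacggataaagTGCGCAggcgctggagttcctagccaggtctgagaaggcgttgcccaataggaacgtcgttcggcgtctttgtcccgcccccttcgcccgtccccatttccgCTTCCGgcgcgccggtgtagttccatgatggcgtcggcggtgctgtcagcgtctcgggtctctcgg

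The windows of Cox7a1 and Cox8b held no match to the ETS core. CG dinucleotides numbered 7 in Cox7a1 and 2 in Cox8b, against 20, 19 and 32 in Cox7a2, Cox8a and Cox6a1. Over all 32851 windows of this length the median was 7, with quartiles of 3 and 20, so Cox7a1 stood at the median and Cox8b below the lower quartile. An ETS core was found in 6 of the 8 windows, all but Cox7a1 and Cox8b, and in 16.9% of all windows. NRF1 cores were found in Cox6a1 and Cox5b, and in 7.76% of all windows. The Sp1 letters GGGCGG were found in Cox5a, Cox6a1 and Cox7a2 (35.7% of all windows). E-boxes stood in 6 windows, among them Cox7a1 with CAAATG at -124 and Cox8b with CAGCTG at -19 and 17, positions being counted from the start as 1. They were also found in 72.3% of all windows. A MEF2-type match was found in Cox5b, and in 3.69% of all windows. The ERR half-site AAGGTCA (4.72% of all windows) and the C/EBP-ATF response element TGATGNAA (3.97%) matched no member window. In the 5 windows printed, matches to different motifs did not overlap. A match is a run of letters and does not show that a factor binds there.

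Among other subunits of complex IV, Cox7b, Cox7c, Ndufa4 and Cox6b2 fell and none rose. The list held 13 genes, of which Cox4i1 was not found by its symbol and so not analysed here. Cox8c, Cox7b2 and mt-Co1 were not tested. Of the 9 loci tested 5 fell, with a median log2 fold change of -0.92, and limma called none higher, also at an unadjusted p under 0.05. Over all loci 19.5% were lower and 16.1% higher. Among the 5 is a merged locus with listed zeros, described below, and without it 4 of 8 fell. The median of -0.92 includes that locus. Cox7b, a membrane-spanning subunit, had 423, 293 and 457 FPKM in the knockout libraries and 735, 778 and 866 FPKM in the control libraries (-1.04 on the log2 scale, SE 0.22, limma adjusted p = 0.010). Cox7c had 35.2, 22.0 and 29.0 FPKM in the knockout libraries and 57.6, 56.4 and 55.5 FPKM in the control libraries (log2 fold change -0.99, limma adjusted p = 0.0052). Both were lower in each knockout library than in any control.

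Ndufa4, once counted with complex I and now with complex IV, fell as well, with 807, 527 and 985 FPKM in the knockout libraries and 1295, 1420.1 and 1534 FPKM in the control libraries (log2 fold change -0.92, limma adjusted p = 0.035). Cox6b2, known as the testis form of COX6B, was scarce in heart, at 0.137, 1.15 and 0.647 FPKM in the knockout libraries and 4.16, 3.75 and 1.71 FPKM in the control libraries (log2 fold change -1.73, limma adjusted p = 0.016). The last of the 5 was a locus that joins mt-Co3 with mt-Atp8 and mt-Atp6, listed at 0 in knockout replicates 1 and 3, at 167 FPKM in knockout replicate 2, and at 351, 332 and 357 FPKM in the control libraries. A listed 0 at so abundant a locus can be a failed estimate, so no fold is given for it, and mt-Co1 was likewise listed at 19583 FPKM in knockout replicate 2 and at 0 elsewhere.

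The remaining tested subunits did not pass. For mt-Co2, part of the catalytic core, the values were 277, 133 and 284 FPKM in the knockout libraries and 324, 295 and 303 FPKM in the control libraries (limma adjusted p = 0.23). Cox7a2l, a relative of COX7A, had 120.0, 91.3 and 134 FPKM in the knockout libraries and 143, 143 and 153 FPKM in the control libraries (limma adjusted p = 0.14). Cox4i2, the COX4 form known from lung, had 4.58 to 7.95 FPKM in knockouts and 7.10 to 8.76 FPKM in controls, and Ndufa4l2 had 9.51 to 10.1 FPKM in knockouts and 9.20 to 11.4 FPKM in controls. Cox8c was listed at 0 in every library and Cox7b2 at no more than 0.589 FPKM in knockouts and 0.541 FPKM in controls. Without knockout replicate 1 or control replicate 1, 2 or 3 the number lower was 3, 2, 2 and 3. The number lower over all loci also dropped, to 1959, 1529, 1409 and 1470 from 2377. Cycs, the somatic cytochrome c that hands electrons to complex IV, fell, at 8.90, 6.22 and 9.04 FPKM in the knockout libraries and 16.9, 18.3 and 17.6 FPKM in the control libraries (log2 fold change -1.10, limma adjusted p = 0.0024). Cyct, the testis form, was at most 0.0834 FPKM in knockouts and 0.136 FPKM in controls and was not tested.

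Among 30 assembly factors of complex IV, 7 fell, 1 rose and 22 did not pass, where 19.5% of all loci were lower and 16.1% higher. The number lower is near that background. Their median was -0.34 on the log2 scale, and they ranged from -0.89 to 1.12. The factors that fell were Cmc2, Smim20, Oxa1l, Higd1a, Cox20, Coa6 and Fastkd3. Cmc2 had 15.2, 10.8 and 14.4 FPKM in the knockout libraries and 22.3, 26.6 and 26.8 FPKM in the control libraries (-0.89 on the log2 scale, SE 0.16, limma adjusted p = 0.0052). Smim20, which helps stabilise the new mt-Co1 protein, fell by 0.75 on the log2 scale, and Oxa1l, which inserts proteins into the inner membrane, fell by 0.65. The gene that rose was Cox19, a protein of the intermembrane space that takes part in copper delivery, with 54.6, 40.7 and 48.8 FPKM in the knockout libraries and 17.6, 23.8 and 24.1 FPKM in the control libraries (1.12 on the log2 scale, SE 0.17, limma adjusted p = 0.0031). The number lower was 3 without control replicate 1, 2 or 3 and also with libraries scaled to one sum. Over all loci 1529, 1409 and 1470 were lower without control replicates 1, 2 and 3, against 2377. Scaling to one sum gave 1400 lower over all loci. A further assembly factor rose, 2 in all, without knockout replicate 2 or control replicate 3. Loci of Cox16, Cox17, Sco2 and Pet117 carry further gene names and share their value with them.

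**Figure D3:**
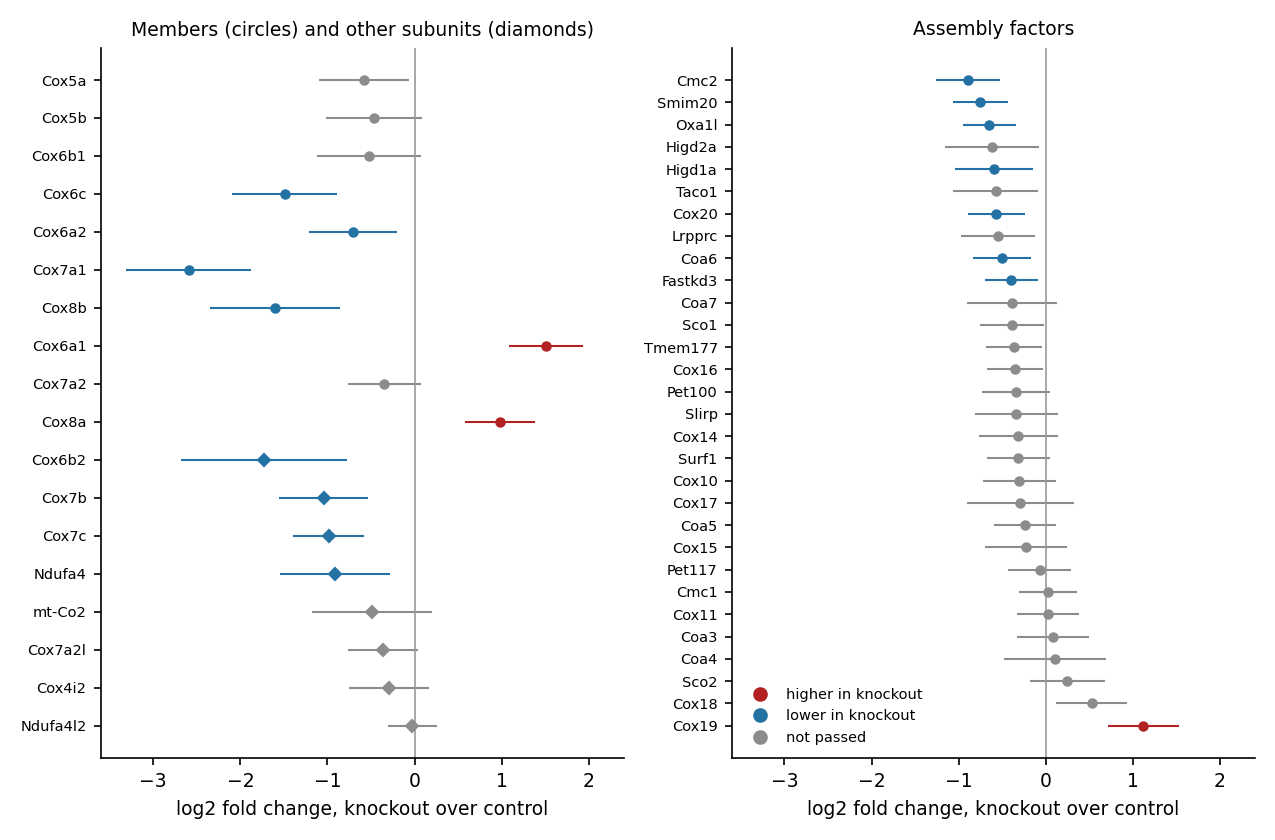
Log2 fold change, knockout over control, with 95% limma intervals for the 10 genes (left, circles), 8 other complex IV subunits (left, diamonds; the merged mt-Co3 locus is left out) and 30 assembly factors (right). Red and blue mark genes higher and lower at an adjusted p under 0.05. The 10 genes range from -2.59 (Cox7a1) to 1.51 (Cox6a1), the assembly factors from -0.89 to 1.12.

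Other genes with a muscle form showed lower ratios too. A muscle form was set against a partner form in 14 other pairs. The partner is mostly a more widespread form, but Myh7 and Tnni1 are themselves muscle forms. Of the 14 pairs 11 had both forms tested, and in 11 of 11 the ratio was lower in knockouts, without overlap in 10. The log2 changes ran from -6.17 to -0.18 with a median of -2.17, beside -2.22, -2.25 and -2.59 for COX6A, COX7A and COX8. The largest were Rpl3l over Rpl3 (-6.17), a ribosomal protein pair, Myh6 over Myh7 (-3.72), the adult and fetal cardiac myosins of the mouse, and Eno3 over Eno1 (-3.37), a glycolytic enzyme pair. In 5 of the 11 the change was larger than in any complex IV pair. The muscle form passed as lower in 11 of 11, and the partner passed as higher in 6 and lower in 2. Over all loci 19.5% were lower and 16.1% higher. The share of arbitrary gene pairs with a lower or non-overlapping ratio was not computed. The smallest change was that of Pygm over Pygb, and its values overlapped between groups. The Rpl3 locus also carries another gene name. These pairs were chosen with earlier results of these data known. They are a description from the same 6 libraries with no test of the ratio.

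**Figure D4:**
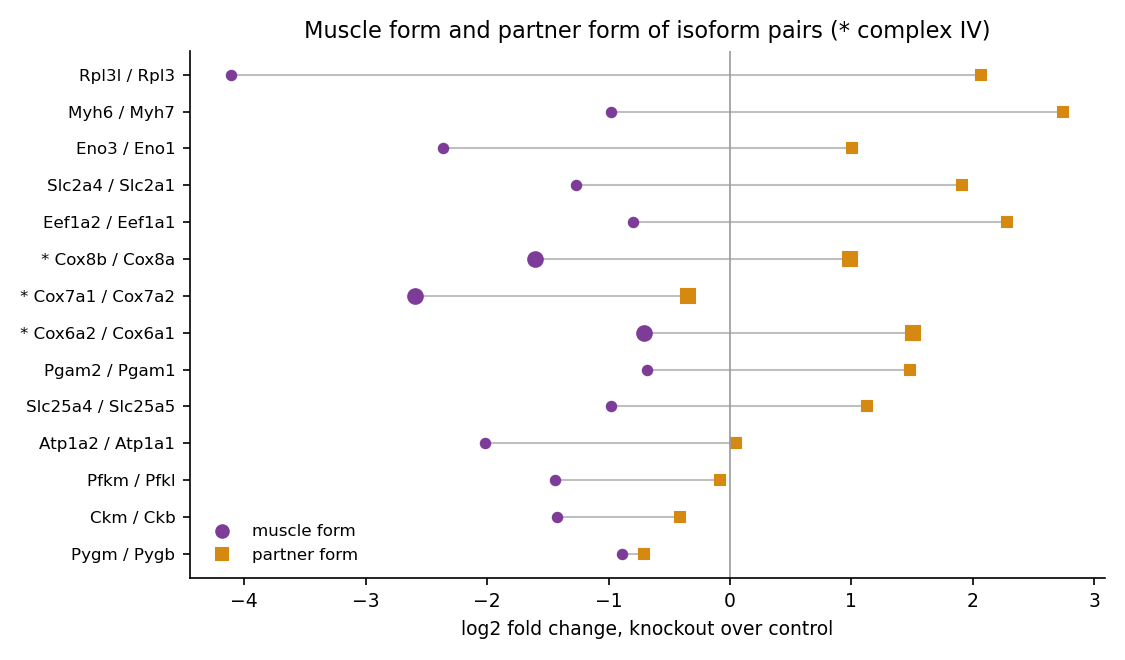
Log2 fold change, knockout over control, of the muscle form (purple circles) and its partner form (orange squares) for the 3 complex IV pairs (starred, larger symbols) and 11 other pairs, ordered by the change in ratio from -6.17 at the top to -0.18 at the bottom. The muscle form lies left of its partner in every pair.

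Among 4406 other protein-coding loci with a mean of at least 10 FPKM, the closest in pattern to Cox7a1 over the 6 libraries were Asb14, Yipf7 and Mov10l1. Their root mean square differences on the log2 scale, relative to the control mean, were 0.12, 0.17 and 0.20, with log2 fold changes of -2.62, -2.60 and -2.68. Cox8b was the nearest of the other 9 genes to Cox7a1, at 0.72 and rank 74. The loci closest to Cox6a1 were Rabepk, Odc1 and Elovl1, at 0.093, 0.094 and 0.12, with log2 fold changes of 1.53, 1.57 and 1.51. Cox8a stood at 0.38 and rank 148. All these profiles share the same libraries and the same difference between groups.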

How the data were processed

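The authors deposited FPKM for 44450 loci in each of 6 total RNA libraries (TruSeq, random hexamers, Ribo-Zero), 1 file per library, per the labels and file headers. The submitters' processing notes name bedtools, Cuffdiff, Cufflinks 2.2.1, HISAT 0.1.6, HISAT2 2.0.1, Picard 1.23, SAMtools 1.3 and StringTie 1.1.0, and the builds mm10 and GRCm38. What each did, the annotation, strand handling and any scaling between libraries: not given in the sources used here. The 6 PARE libraries of the series were not analysed here.

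Groups and replicate numbers came from the source names. The labels do not say that replicates are separate animals, so the p-values cover only the spread between these libraries, which may be technical. Values were analysed as log2(FPKM + 0.5), which understates changes of low genes, by two-sided moderated tests with a variance trend (limma 3.58.1, R 4.3.3). Loci reaching 1 FPKM in 3 or more libraries were kept (12181), and p-values were Benjamini-Hochberg adjusted over them. Isoform partners were compared by the same fit after subtracting the ubiquitous form within each library. Shares and totals were compared by exact two-sided permutation. The fits were tested on simulated libraries. Whole reads could not be recovered, so relative depth was read from the commonest ratio between libraries over 591 loci under 1 FPKM, and no counting interval is given. That ratio was held by 47, 66 and 44 of these loci in knockout replicates 1, 2 and 3. In control replicates 2 and 3 it was held by 96 and 76.

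The members, lists and pairs were chosen with earlier results of these data known. The genes named were all members and other complex IV subunits, the 4 assembly factors with the largest change among those called, the 3 other pairs with the largest fall (none rose), and the 3 loci most like Cox7a1 and Cox6a1. The remaining assembly factors that fell, those at merged loci, Dcn and Pdgfra, and Pygm over Pygb, were named after their values were seen. Gene positions and promoters came from RefSeq on GRCm38.p6, in which all 10 symbols were found.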

Additional observations from a re-analysis of the deposited data

How the results depend on the processing

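The log2 changes of the 3 isoform ratios kept their direction and their call in every alternative that gave a value, with ranges of -2.32 to -2.08 for COX6A, -2.48 to -2.06 for COX7A and -2.80 to -2.29 for COX8. With array weights the ratio fits for COX6A and COX7A could not be fitted, since the weights did not converge. Cox7a1, Cox8b, Cox6c, Cox6a1 and Cox8a kept their calls in all 17 alternatives, while Cox6a2 lost its call in 9. Array weights called 8 members lower, adding Cox5a, Cox5b, Cox6b1 and Cox7a2, against 4. That setting also called more of all loci, 2857 higher and 3367 lower, against 1966 and 2377. Quantile normalization turned Cox5b to 0.027; the cause was not tested. Over all loci, scaling to one sum gave 3229 higher and 1400 lower, and the same without mtDNA-encoded loci 3379 higher and 1282 lower, with the COX6A total then at -0.21 and -0.17. With 1 library left out the counts ranged from 1212 to 2153 higher and 1409 to 2389 lower over all loci, from 3 to 5 members lower, from 2 to 5 other subunits lower, and from 1 to 2 assembly factors higher and 3 to 7 lower. Scaling to one sum gave 2 assembly factors higher and 3 lower. Same-numbered knockout and control libraries did not deviate together (correlations over loci of -0.083, -0.064 and -0.0063). With 3 libraries per group this cannot show that they were not paired. With a replicate block 3 members fell, Cox6a2 being lost (adjusted p = 0.098), 2 rose, and 4 assembly factors fell. The block gave 1536 higher and 1807 lower over all loci. Alternatives for the lists of other subunits and assembly factors, and the ratios as added rows, were chosen after seeing the data. Estimated depth differed with genotype, which limits genes near 0 such as Cox6b2 more than the members.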
